A study of Mus musculus with 16 samples.

Results

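The Polycomb repressive complex genes studied here are 10 genes: Ezh1, Ezh2, Eed, Suz12, Jarid2, Mtf2 and Phf19 of Polycomb repressive complex 2 (PRC2) and Cbx2, Cbx7 and Bmi1 of Polycomb repressive complex 1 (PRC1). They were taken by name, with no threshold on measured values but with earlier results of these data known, and all 10 were found among the 24982 genes of the RNA sequencing tables. The 16 tumors are primary mouse rhabdoid tumors (RT), 1 per mouse, from mice of genotype Smarcb1flox/flox;R26-CreERT2, in which tamoxifen given during gestation activates a Cre recombinase expressed in all cell types and removes Smarcb1, a subunit of the SWI/SNF chromatin remodeling complex. The labels give the site of each tumor and the study gives the subgroup. The 5 Shh tumors lay inside the brain parenchyma (intra-CNS), all from tamoxifen at embryonic day 6 (E6), in mice 30 to 180 days old. Of the 11 Myc tumors, 6 grew within the skull yet not in the parenchyma, here called intracranial (tamoxifen at E6 in 1, E7 in 1 and E8 in 4, mice 52 to 170 days old) and 5 were extracranial, in the back, jaw, nose or mouth (E6 in 1 and E8 in 4, 80 to 210 days). All mice therefore share the genotype, on a mixed 129/SV and C57BL/6 background, while the deletion itself was not measured here, and neither normal tissue nor tumors that keep Smarcb1 were analysed here. By the labels, 2 Shh mice were female and 3 had no sex given. Of the Myc mice, 7 were female, 3 were male and 1 had no sex given.

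PRC2 places methyl groups on lysine 27 of histone H3, a mark of repressed developmental genes. Its core joins one of the methyltransferases Ezh1 or Ezh2 to Eed, which reads the mark, and Suz12, the scaffold. Accessory subunits (Jarid2, or one of the Polycomb-like proteins Phf1, Mtf2 and Phf19) bring the core to chromatin. Canonical PRC1 reads the same mark through a Cbx protein, such as Cbx2 or Cbx7, and ubiquitinates histone H2A through Ring1 or Rnf2 together with a Pcgf protein such as Bmi1. SWI/SNF counteracts Polycomb at many genes, and Ezh2 is a drug target in human rhabdoid tumors.

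Total counts ranged from 17889968 to 110177889 per tumor. Levels are given on 2 scales. Normalized counts are library-size scaled counts (CPM), adjusted with edgeR's TMM factors, and serve to compare tumors. TPM, a transcript share that the authors corrected for gene length, serves to compare genes within a tumor. The choice matters here, because the median log2 difference between Shh and Myc tumors over genes averaging 50 or more counts was -0.11 for normalized counts and 0.47 for log2(TPM + 1). A gene was called at a Benjamini-Hochberg adjusted p under 0.05 in edgeR's quasi-likelihood test over all genes. With normalized counts, 3526 genes were called higher and 3710 lower in Shh tumors, and with limma on log2(TPM + 1) 7060 were higher and 1701 lower. Smarcb1, counted over the whole gene, stood between 3.99 and 9.91 TPM in 4 Shh tumors and at 58.1 TPM in that of mouse 29048, and between 6.48 and 43.7 TPM in Myc tumors, the highest in R26P115. The log2 fold change of Smarcb1 counts was -0.59 (SE 0.63, edgeR adjusted p = 0.48), -1.97 (adjusted p = 0.0147) without 29048 and -1.67 (adjusted p = 0.00847) without 29048 and R26P115. The tumor of 29048 also held a summed 9822 CPM of 6 oligodendrocyte markers, against 51.1 to 281 CPM in the other 15 tumors. In R26P115 the 20 most abundant genes took 23.4% of counts, against 3.89% to 10.2% in the others. These 2 tumors also had the lowest sums of 19 proliferation genes, 454 and 303 CPM. The count of calls among the 10 genes between Shh and Myc tumors is given with and without them below.

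Promoter sequences are shown for 4 genes that were called between Shh and Myc tumors and have a window in the RefSeq table of GRCm38.p6, which held windows for 9 of the 10 genes. Each window runs from 250 bases before to 50 bases after a start site. The motifs searched on both strands were the E2F-type words TTTCCCGC, TTTGGCGC, TTTCGCGC and TTTGCCGC, and CACGTG, the E-box bound by Myc with Max. Capitals mark a match. Ezh2 is shown at chr6:47594981-47595280, minus strand, Mtf2 at chr5:108065424-108065723, plus strand, Bmi1 at chr2:18676768-18677067, plus strand, and Eed at chr7:89980927-89981226, minus strand.
Ezh2: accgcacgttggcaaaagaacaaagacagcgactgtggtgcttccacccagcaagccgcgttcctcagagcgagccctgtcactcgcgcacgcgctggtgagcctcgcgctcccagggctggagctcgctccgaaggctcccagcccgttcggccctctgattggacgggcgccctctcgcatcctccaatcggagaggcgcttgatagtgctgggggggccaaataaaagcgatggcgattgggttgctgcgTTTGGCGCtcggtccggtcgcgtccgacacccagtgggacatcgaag
Mtf2: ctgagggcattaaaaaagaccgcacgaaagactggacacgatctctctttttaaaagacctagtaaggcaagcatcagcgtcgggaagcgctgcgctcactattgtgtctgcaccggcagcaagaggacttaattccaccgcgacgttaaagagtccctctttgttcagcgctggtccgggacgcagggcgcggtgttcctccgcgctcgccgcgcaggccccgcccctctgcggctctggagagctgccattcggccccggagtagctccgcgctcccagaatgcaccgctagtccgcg
Bmi1: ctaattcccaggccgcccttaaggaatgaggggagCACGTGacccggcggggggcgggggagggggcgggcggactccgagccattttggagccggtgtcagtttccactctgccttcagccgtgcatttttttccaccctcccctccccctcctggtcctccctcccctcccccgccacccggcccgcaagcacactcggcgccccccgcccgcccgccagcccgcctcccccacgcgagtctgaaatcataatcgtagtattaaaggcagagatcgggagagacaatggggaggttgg
Eed: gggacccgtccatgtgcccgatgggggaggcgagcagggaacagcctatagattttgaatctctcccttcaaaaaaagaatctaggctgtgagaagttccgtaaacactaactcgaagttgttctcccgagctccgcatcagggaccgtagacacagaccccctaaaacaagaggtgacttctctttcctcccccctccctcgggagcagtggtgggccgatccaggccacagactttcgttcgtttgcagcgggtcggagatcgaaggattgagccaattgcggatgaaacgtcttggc

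The Ezh2 window held TTTGGCGC at position 4 after the start site, a word found in 0.515% of all 32817 windows of this length. The Bmi1 window held CACGTG, found in 7.15% of windows. The windows of Mtf2 and Eed held none of these words. Among genes not called, Suz12 and Phf19 each had TTTCCCGC (1.07% of windows), on the plus and on the reverse strand of the gene. No match was found in the Ezh1, Cbx7 and Jarid2 windows. All these are matches of letters, with no measure of binding. The shares are over all windows, whatever their CpG content.

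Between Shh and Myc tumors, 5 of the 10 Polycomb genes were called. Mtf2, Ezh2, Cbx2 and Bmi1 were higher in Shh tumors and Eed was lower. Over all 21854 genes tested, 33.1% were called, so that 5 of 10 is read against that share, with 4 higher (16.1% of all genes) and 1 lower (17.0%). All genes include many of very low counts. Of the 16160 genes that passed a filter on low counts, 42.1% were called, 3189 higher and 3622 lower. Mtf2, Ezh2 and Cbx2 exceeded a log2 fold change of 1. The median log2 fold change of the 10 genes was 0.33, beside -0.15 over all genes tested. The same 5 genes were called without 29048 and R26P115, an omission chosen after seeing the data (35.0% of all genes called). The p-values measure the spread between tumors of different mice. Since the tissue is bulk, fewer cells of a type and less RNA per cell cannot be told apart.

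**Figure D1:**
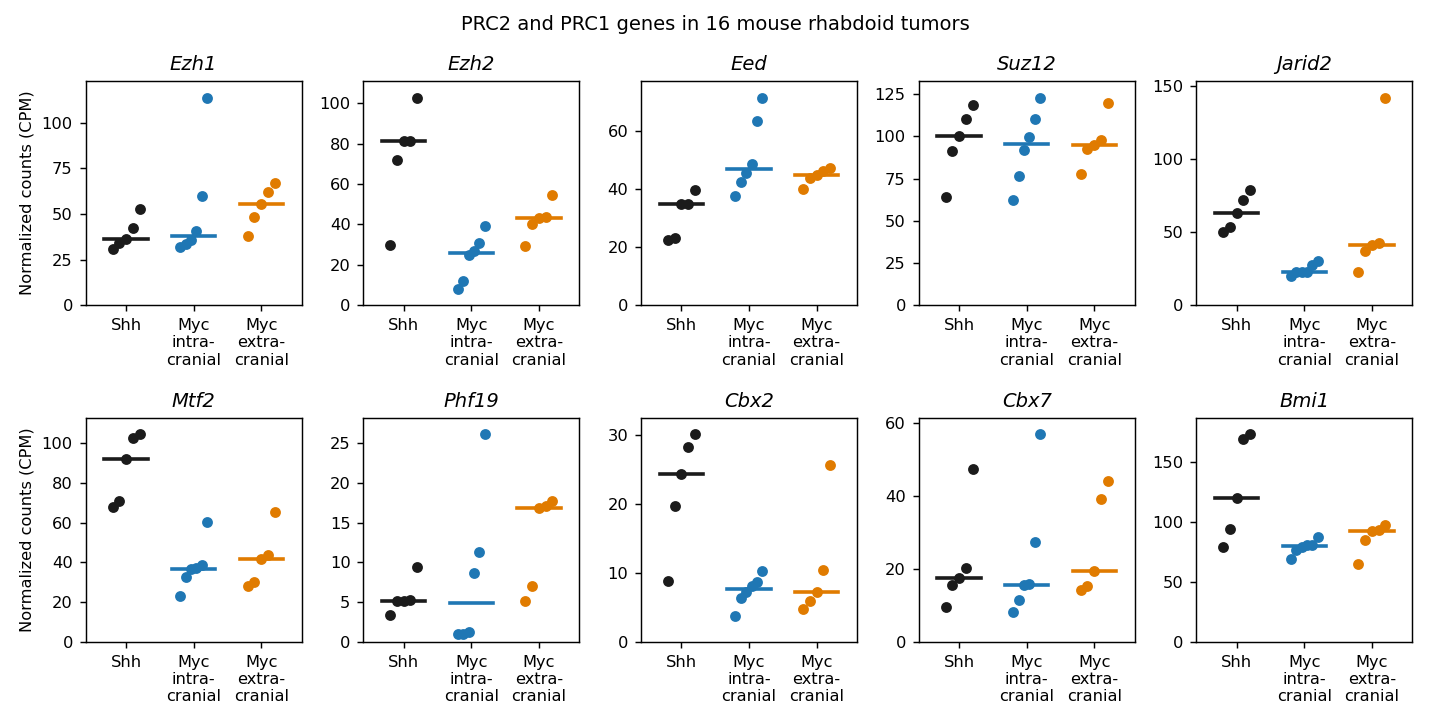
Normalized counts (CPM, linear axis from 0) of the 10 genes in each tumor. Points are tumors, bars are group medians, and columns are 5 Shh, 6 intracranial Myc and 5 extracranial Myc tumors. Mtf2 separates all 5 Shh tumors from all 11 Myc tumors, while Suz12 overlaps in all groups.

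The catalytic subunits came first. Ezh2 (ENSMUSG00000029687.16, chromosome 6 of GRCm38, 47530139 to 47595341) had normalized counts of 29.6, 71.8, 81.3, 81.1 and 103 CPM in the Shh tumors of 29048, 38594A, 29050A, R26P98 and R26P87. In the 11 Myc tumors the lowest was 7.86 CPM (43992A), the median 31.0 CPM and the highest 54.5 CPM (43990A). Of the Shh tumors, 4 lay above every Myc tumor and that of 29048 lay within their range. The log2 fold change of normalized counts was 1.19 (SE 0.36, edgeR adjusted p = 0.0174). Without R26P87 it was 1.04 (adjusted p = 0.0572).
Ezh1 (ENSMUSG00000006920.14, chromosome 11, 101191115 to 101226463), the less active paralog that prevails in resting cells, had 30.5 to 52.8 CPM in Shh tumors and 31.9 to 114 CPM in Myc tumors. Its log2 fold change of normalized counts was -0.44 (SE 0.28, edgeR adjusted p = 0.23), and with limma on log2(TPM + 1) it was 0.16, of the opposite sign. The highest Ezh1 counts were those of R26P115 among Myc tumors and of 29048 among Shh tumors, the same tumors that were lowest in proliferation genes.

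The balance of both methyltransferases can be read within a tumor as the ratio of their TPM, which no scaling between tumors affects. Ezh2 exceeded Ezh1 in 4 of 5 Shh tumors, with ratios of 0.88 in 29048 and up to 5.31 in R26P87 (mean 3.21 ± 1.58, SD, n = 5). In Myc tumors the ratio was 1.10 ± 0.627 (SD, n = 11), from 0.167 in R26P115 to 2.27 in 43990A, and exceeded 1 in 7 of 11. It was above 1 in 3 of 6 intracranial and in 4 of 5 extracranial Myc tumors.

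Of the other core subunits, Eed was called and Suz12 was not. Suz12 (ENSMUSG00000017548.15, chromosome 11, 79993106 to 80034123) had 97.0 ± 21.1 CPM (SD, n = 5) in Shh and 95.2 ± 18.4 CPM (SD, n = 11) in Myc tumors. Its difference was 0.03 on the log2 scale (SE 0.17, edgeR adjusted p = 0.92). With limma on log2(TPM + 1), where the median gene was also higher, the difference was 0.54 (adjusted p = 0.0114). Eed (ENSMUSG00000030619.9, chromosome 7, 89954654 to 89980983) had 22.4, 23.1, 39.7, 34.9 and 34.9 CPM in the Shh tumors of 29048, 38594A, 29050A, R26P98 and R26P87. In Myc tumors it ranged from 37.5 to 71.5 CPM with a median of 45.6 CPM, so that 4 Shh tumors lay below every Myc tumor. The log2 fold change was -0.64 (SE 0.19, edgeR adjusted p = 0.0161), but -0.55 (adjusted p = 0.0542) without 38594A, and -0.12 (adjusted p = 0.601) with limma on log2(TPM + 1). Within tumors, the ratio of Eed to Suz12 TPM was 0.681 ± 0.0973 (SD, n = 5) in Shh tumors, at most 0.763, and 1.10 ± 0.228 (SD, n = 11) in Myc tumors, at least 0.774. The ratio was therefore below 1 in every Shh tumor and above 1 in 9 of 11 Myc tumors. The groups did not overlap, but the gap was narrow, from 0.763 in 29050A to 0.774 in 43990A. This ratio was not among those planned, and how many other gene pairs separate the groups was not counted. No test was run on these ratios.

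Of the accessory subunits of PRC2 among the 10 genes, Mtf2 differed with the least overlap. Mtf2 (ENSMUSG00000029267.17, chromosome 5, 108065674 to 108109004), a Polycomb-like protein that binds unmethylated CpG islands, had 67.9, 92.2, 103, 70.8 and 104 CPM in the Shh tumors of 29048, 38594A, 29050A, R26P98 and R26P87. In Myc tumors it had 23.0 to 65.3 CPM, with a median of 37.2 CPM. By normalized counts it was the only one of the 10 genes whose Shh and Myc tumors did not overlap, against 15.0% of the 14807 genes that averaged 50 or more counts. In TPM Bmi1 did not overlap either, with a lowest Shh value of 70.0 TPM and a highest Myc value of 62.2 TPM. Mtf2 was higher by 1.14 on the log2 scale (SE 0.22, edgeR adjusted p = 0.000871), and it kept an adjusted p of at most 0.00372 whichever single tumor was left out.
Phf19 (ENSMUSG00000026873.9, chromosome 2, 34893757 to 34914026), a second Polycomb-like protein, was the least abundant of the 10 genes in Shh tumors, at a median of 4.40 TPM. Among Myc tumors its counts varied 27.1-fold, the widest range of the 10 genes, from 0.964 CPM in R26P115 (1.02 CPM in 43992A and 1.26 CPM in R26P170) to 26.1 CPM in 43989C. Its log2 fold change was -0.86 (SE 0.70, edgeR adjusted p = 0.35), and 0.06 on the log2(TPM + 1) scale. The third paralog, Phf1, was not called (-0.29, SE 0.22), nor was Aebp2, a further accessory subunit (-0.55, SE 0.22, adjusted p = 0.0673). With limma on log2(TPM + 1) the differences of these genes were 0.25 and 0.04. Aebp2 was called lower in Shh tumors with DESeq2 (-0.53, adjusted p = 0.0423) and with edgeR without 43825B (-0.60, adjusted p = 0.0494) or 43990A (-0.62, adjusted p = 0.0266).

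Jarid2 (ENSMUSG00000038518.15, chromosome 13, 44729474 to 44921643), which recruits PRC2 and is itself methylated by it, had 53.7, 79.0, 72.0, 63.0 and 50.2 CPM in the Shh tumors of 29048, 38594A, 29050A, R26P98 and R26P87. Of the 11 Myc tumors, 10 lay below all of these, at 20.2 to 42.5 CPM, and the extracranial tumor of 43998A lay above all, at 142 CPM. Over all tumors its log2 fold change was 0.70 (SE 0.40, edgeR adjusted p = 0.19). Without 43998A it was 1.14 (adjusted p = 0.000791), and with all tumors it was called with limma on log2 CPM, at 0.95 (adjusted p = 0.0482), and on log2(TPM + 1), at 1.40 (adjusted p = 0.00378), so that the call turned on that tumor and on the method.

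Of the PRC1 genes, Cbx2 and Bmi1 were higher in Shh tumors. Cbx2 (ENSMUSG00000025577.7, chromosome 11, 119022962 to 119031270), a Cbx protein that compacts chromatin, had 8.89, 19.8, 30.1, 24.4 and 28.2 CPM in the Shh tumors of 29048, 38594A, 29050A, R26P98 and R26P87. In Myc tumors it had 3.81 to 25.7 CPM with a median of 7.30 CPM. The tumor of 43990A, at 25.7 CPM, stood among the Shh tumors, and 8 of 11 Myc tumors lay below every Shh tumor. Cbx2 was higher by 1.31 on the log2 scale (SE 0.38, edgeR adjusted p = 0.0148).
Bmi1 (ENSMUSG00000026739.13, chromosome 2, 18677018 to 18686629), the Pcgf protein known for silencing the Cdkn2a locus in neural stem cells, had 93.9, 169, 173, 120 and 79.2 CPM in the Shh tumors in the same order, and 64.8 to 97.2 CPM in Myc tumors with a median of 81.1 CPM. Of the Shh tumors, 3 lay above every Myc tumor. The log2 fold change was 0.62 (SE 0.17, edgeR adjusted p = 0.0106) and 0.49 (adjusted p = 0.0508) without 29050A.
Cbx7 (ENSMUSG00000053411.16, chromosome 15, 79915807 to 79971119), the Cbx protein of many stem cells, overlapped widely, with 9.54 to 47.3 CPM in Shh and 8.15 to 56.8 CPM in Myc tumors (log2 fold change -0.14, SE 0.46, adjusted p = 0.83). Its sign turned on the log2(TPM + 1) scale, where the difference was 0.40. Cbx7 was highest in 29048 among Shh tumors and in R26P115 among Myc tumors, like Ezh1.

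**Figure D2:**
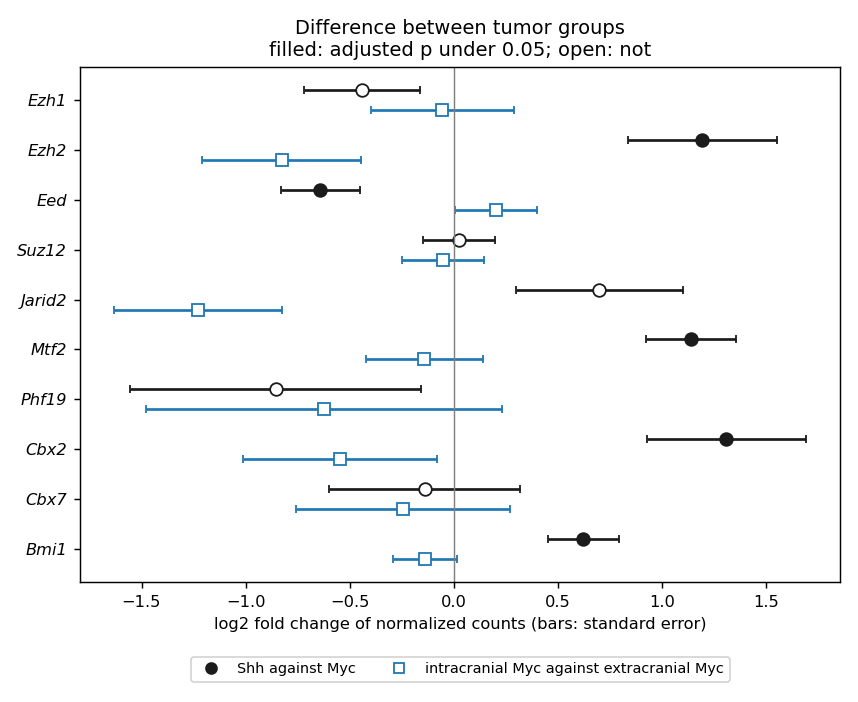
Log2 fold change of normalized counts (horizontal axis) with its standard error for the 10 genes. Circles compare 5 Shh with 11 Myc tumors and squares 6 intracranial with 5 extracranial Myc tumors, filled where the adjusted p was under 0.05. The filled circles are Mtf2, Ezh2, Cbx2, Bmi1 and Eed, and no square is filled.

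All Shh tumors came from tamoxifen at E6, as did only 2 Myc tumors, so the day of induction is almost confounded with the subgroup. Among E6 tumors alone, Mtf2 was called (1.72, adjusted p = 0.00904) and the other 9 genes were not, with 17.9% of all genes called. Ezh2 was at 1.40 (adjusted p = 0.0844) and Cbx2 at 1.68 (adjusted p = 0.0783) there. The mouse names follow 2 schemes, of which the labels do not say what they stand for. Among the 11 numbered mice (3 Shh, 8 Myc), Mtf2 (0.93), Bmi1 (0.72) and Eed (-0.93) were called (29.9% of all genes), while Ezh2 (0.76, adjusted p = 0.22) and Cbx2 (0.90, adjusted p = 0.186) were not. Among the 5 R26P mice (2 Shh, 3 Myc) these log2 fold changes were 1.54 for Mtf2, 0.29 for Bmi1, -0.25 for Eed, 1.77 for Ezh2 and 2.08 for Cbx2. No gene of 20347 was called by edgeR in that comparison (0.00%), while 3514 had an unadjusted p under 0.05. The 5 genes kept their sign in both schemes.

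The site of Myc tumors was compared next, between the 6 intracranial and the 5 extracranial ones. None of the 10 Polycomb genes was called with edgeR or with DESeq2, and 1 had an unadjusted p under 0.05. Over all 21261 genes tested, 1 was called with edgeR (0.00470%), 505 with DESeq2 (2.38%), and 12.3% had an unadjusted p under 0.05. Of the 10 log2 fold changes, 9 were negative, that is lower in intracranial tumors, beside 10306 of all 21261 genes. For 43990A, extracranial in the labels, the study's list of mice has an intracranial tumor under the same number without the letter, and with 43990A as intracranial Cbx2 (0.48), Mtf2 (0.21) and Suz12 (0.09) had the opposite sign. Jarid2 had 22.4, 37.3, 40.9, 42.5 and 142 CPM in extracranial and 20.2 to 30.5 CPM in intracranial tumors, with 4 extracranial tumors above all intracranial ones. Its log2 fold change was -1.23 (SE 0.40, edgeR adjusted p = 0.35), and -0.57 (adjusted p = 0.482) without 43998A. Ezh2 had 29.1, 40.4, 42.9, 43.6 and 54.5 CPM in extracranial and 7.86 to 39.2 CPM in intracranial tumors (-0.83, SE 0.38, edgeR adjusted p = 0.41), and with 43990A as intracranial its difference was -0.48 (adjusted p = 0.715). The other 8 genes lay between -0.62 (Phf19, SE 0.86) and 0.20 (Eed, SE 0.20).
The 19 proliferation genes described below also had negative log2 fold changes in this comparison (median -0.43), with none called by edgeR and 1 at an unadjusted p under 0.05. Of the cell type markers described below, none called, those of macrophages and microglia (9 of 9), T cells (5 of 5), skeletal muscle (5 of 5) and fibroblasts (4 of 6) were mostly negative. Those of oligodendrocytes (5 of 6), astrocytes (4 of 5), endothelium (4 of 6) and neurons (5 of 8) were mostly positive. The part of proliferation genes and of these cells in the values of Ezh2 and the other members was not tested.

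Against each site on its own, with the same 5 Shh tumors in both comparisons, 6 of the 10 genes were called against intracranial Myc tumors (28.1% of all genes called) and 1 against extracranial ones (29.2%). With DESeq2, 4 were called against extracranial tumors (34.6%), adding Cbx2, Bmi1 and Eed. Mtf2 was called in both, at 1.20 (SE 0.26) and 1.07 (SE 0.27). Ezh2 stood at 1.63 (SE 0.38, edgeR adjusted p = 0.00517) against intracranial and 0.80 (SE 0.39, adjusted p = 0.14) against extracranial tumors. Jarid2 stood at 1.39 (SE 0.36, adjusted p = 0.0105) and 0.16 (SE 0.38, adjusted p = 0.79), and the second value rests on 43998A, without which it was 0.83 (adjusted p = 0.017). Cbx2 was at 1.58 (adjusted p = 0.0149) and 1.04 (adjusted p = 0.103), the second being 1.64 (adjusted p = 0.00769) without 43990A. Bmi1 was at 0.68 (adjusted p = 0.0193) and 0.55 (adjusted p = 0.0597). The first call of Bmi1 was lost without 38594A (adjusted p = 0.064) or 29050A (adjusted p = 0.0646), and the second value was called without 29048 (0.64, adjusted p = 0.0393) or R26P87 (0.68, adjusted p = 0.0208). Eed was at -0.73 (adjusted p = 0.017) and -0.52 (adjusted p = 0.0827). The test of the difference between these pairs is the site comparison above, in which none was called.

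Compared per length, in median TPM, Shh tumors held most Bmi1 (103 TPM), Ezh2 (93.8 TPM) and Suz12 (71.0 TPM), then Mtf2 (56.0 TPM) and Eed (52.5 TPM), Jarid2 (31.7 TPM), Ezh1 (26.6 TPM), Cbx2 (20.1 TPM), Cbx7 (19.2 TPM) and Phf19 (4.40 TPM). The ranges of neighbours overlapped, except those of Cbx7 and Phf19. In Myc tumors Bmi1 (50.5 TPM), Eed (48.1 TPM) and Suz12 (47.6 TPM) led with overlapping ranges. They were followed by Ezh1 (26.2 TPM) and Ezh2 (25.1 TPM), Mtf2 (16.0 TPM), Cbx7 (11.6 TPM), Jarid2 (8.40 TPM), Phf19 (5.24 TPM) and Cbx2 (4.06 TPM). Ezh2 thus ranked 2 of 10 in TPM in Shh and 5 of 10 in Myc tumors, and Cbx2 ranked 8 and 10.

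Cbx2 and Cbx7 compete with other Cbx paralogs for a place in canonical PRC1, and were set beside Cbx6 and Cbx8. Of the summed TPM of these 4 genes, Cbx6 took most in both subgroups, 66.3% ± 7.21 (SD, n = 5) in Shh and 67.4% ± 10.7 (SD, n = 11) in Myc tumors. Cbx2 took 10.7% ± 5.64 (SD) in Shh tumors, from 2.62% in 29048 to 16.8% in R26P87, and 4.71% ± 2.06 (SD) in Myc tumors, from 1.89% in R26P115 to 9.71% in 43990A. Cbx7 took 11.4% ± 4.23 (SD) in Shh and 17.2% ± 10.7 (SD) in Myc tumors, with 36.7% in R26P115 and 33.0% in 43825B. Cbx2 exceeded Cbx7 in 3 of 5 Shh tumors and in 1 of 11 Myc tumors, that of 43990A. Cbx6 (log2 fold change of counts 0.33, SE 0.23) and Cbx8 (0.42, SE 0.25) were not called with edgeR. With limma on log2(TPM + 1) they were called, at 0.83 (adjusted p = 0.0141) and 0.91 (adjusted p = 0.00181).
Among the 6 Pcgf paralogs, Bmi1 took 29.2% ± 6.66 (SD, n = 5) of their summed TPM in Shh and 21.2% ± 3.79 (SD, n = 11) in Myc tumors. Its nearest relative Pcgf2 took 25.1% ± 4.93 and 20.5% ± 4.47 (SD). The log2 fold change of Pcgf2 counts was 0.43 (SE 0.23, edgeR adjusted p = 0.154). Pcgf2 was called without 29048 (0.60, adjusted p = 0.0441), without 43992A (0.55, adjusted p = 0.0444), without 29048 and R26P115 (0.63, adjusted p = 0.0335), and with limma on log2(TPM + 1) (0.94, adjusted p = 0.00259).

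**Figure D3:**
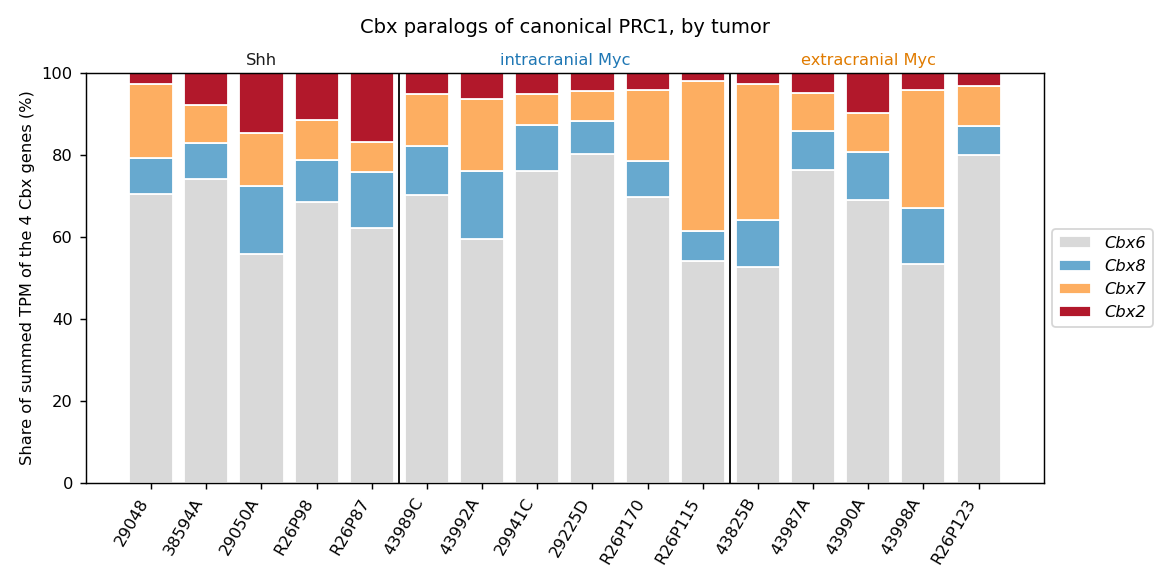
Share of Cbx2, Cbx6, Cbx7 and Cbx8 in the summed TPM of these 4 genes (vertical axis, percent), 1 stacked bar per tumor, in 5 Shh, 6 intracranial Myc and 5 extracranial Myc tumors. Cbx6 is the largest share in every tumor, Cbx2 reaches 16.8% in the Shh tumor of R26P87 and Cbx7 36.7% in the Myc tumor of R26P115.

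The remaining subunits were counted from a list of 29 further Polycomb genes. Of 21 genes of PRC1 and its variants, 9 were higher in Shh tumors, none lower, and 12 were not called (median log2 fold change 0.43), against 16.1% of all genes higher and 17.0% lower. Of 16160 genes that passed a filter on low counts, 3189 were higher and 3622 lower. Auts2, an activating partner of a variant PRC1 in neurons, had 72.1 to 118 CPM in Shh and 1.13 to 24.3 CPM in Myc tumors (3.46, SE 0.56, edgeR adjusted p = 0.000249). Phc1, a polyhomeotic protein that joins PRC1 complexes to each other, had 104 to 367 CPM in Shh and 32.5 to 65.2 CPM in Myc tumors (2.42, SE 0.25, edgeR adjusted p = 7.69e-06). Ring1, a catalytic subunit, had 54.9 to 70.1 CPM and 16.3 to 41.1 CPM (1.11, SE 0.20), while its paralog Rnf2 was not called (-0.30, SE 0.25). The groups did not overlap for Auts2, Phc1 and Ring1, as for 15.0% of genes averaging 50 or more counts. Rybp (1.12), a subunit of variant PRC1, and Scml2 (1.25) also passed a log2 fold change of 1, and Scmh1 (0.86), Kdm2b (0.73), Bcorl1 (0.68) and Pcgf6 (0.65) were called below it. The call of Bcorl1 was lost without any one of 13 of the 16 tumors, with upper-quartile factors (adjusted p = 0.0507) and with the name scheme as covariate (adjusted p = 0.0599), and that of Pcgf6 without any one of 9 tumors. Among E6 tumors alone, Phc1 kept its call and the other 8 lost it: Auts2 was at 2.85 (adjusted p = 0.0794), Ring1 at 0.97 (adjusted p = 0.0616), Rybp at 1.48 (adjusted p = 0.0641), Scml2 at 1.17 (adjusted p = 0.169), Kdm2b at 0.72 (adjusted p = 0.165), Scmh1 at 0.37 (adjusted p = 0.529), Pcgf6 at 0.93 (adjusted p = 0.0669) and Bcorl1 at 0.30 (adjusted p = 0.641). Among numbered mice, Scml2 (0.98, adjusted p = 0.0968), Kdm2b (0.45, adjusted p = 0.132), Pcgf6 (0.48, adjusted p = 0.237) and Bcorl1 (0.56, adjusted p = 0.175) were not called.
Of 8 further PRC2 genes, 2 were called higher, 2 lower and 4 not (median -0.31). Epop, an accessory subunit that lowers PRC2 binding to chromatin, had 2.14 to 9.49 CPM in Shh tumors and 0.434 to 259 CPM in Myc tumors. Its call (-3.57, SE 1.29, edgeR adjusted p = 0.0427) was lost without any one of 8 of the 16 tumors, among them at -2.97 (adjusted p = 0.0648) without 43825B and -2.95 (adjusted p = 0.0642) without 43992A, the tumors with 254 and 259 CPM. It was also lost with limma on log2(TPM + 1) (-1.37, adjusted p = 0.293) and on log2 CPM (-1.88, adjusted p = 0.212), with the name scheme as covariate (-3.25, adjusted p = 0.0943) and among numbered mice (-4.59, adjusted p = 0.0603). Lcor was lower in Shh tumors (-1.85, SE 0.49) at 6 to 131 counts per tumor, and Lcorl, its relative that also joins PRC2, was higher (0.66, SE 0.20), a call lost without any one of 3 tumors and without 29048 and R26P115 (0.55, adjusted p = 0.0579). Among E6 tumors neither was called (Lcor -1.22, adjusted p = 0.234, Lcorl 0.76, adjusted p = 0.126), nor was Lcorl among numbered mice (adjusted p = 0.0634). With limma on log2(TPM + 1) Lcor was at -0.30 (adjusted p = 0.0425). AU022751, the mouse symbol of the PRC2 inhibitor Ezhip, passed the test with at most 12 counts in any tumor and at most 1 in any Myc tumor, and no fold change is given for it.

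**Figure D4:**
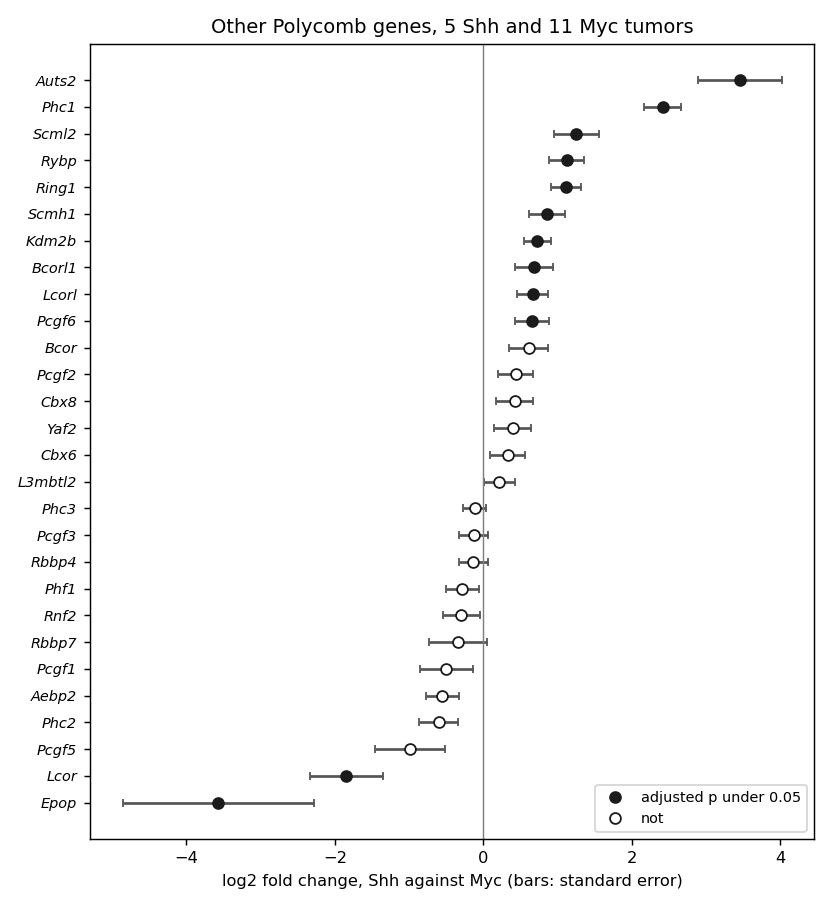
Log2 fold change of normalized counts between 5 Shh and 11 Myc tumors with its standard error, for 28 further Polycomb genes in order of size. Filled points had an adjusted p under 0.05. Auts2 (3.46) and Phc1 (2.42) lead the higher genes, and Epop (-3.57) has the widest error.

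Enzymes that remove Polycomb marks were also counted. Of 7 genes, Bap1 (0.76, SE 0.12), the deubiquitinase of histone H2A, and Kdm6b (0.87, SE 0.29), a demethylase of lysine 27, were higher in Shh tumors. Asxl2 (-0.83, SE 0.23), a partner of Bap1, was lower, and 4 were not called. That is 3 of 7 called, against 33.1% of all genes and 42.1% of those passing a filter on low counts. The call of Asxl2 was lost with limma on log2(TPM + 1) (-0.26, adjusted p = 0.385) and among E6 tumors (-0.68, adjusted p = 0.146). That of Kdm6b was lost among E6 tumors (1.02, adjusted p = 0.262), among numbered mice (0.66, adjusted p = 0.147) and without any one of 4 tumors.

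Genes that Polycomb is known to silence were described from their lists. Cdkn2a, which encodes p16 and p19Arf, had 2.18 to 10.3 CPM in Shh and 6.80 to 107 CPM in Myc tumors (-3.23, SE 0.61, edgeR adjusted p = 0.00078). The neighbouring Cdkn2b had 1.60 to 5.37 CPM and 2.75 to 20.9 CPM (-1.68, SE 0.45, edgeR adjusted p = 0.0089). The call of Cdkn2b was lost with limma on log2(TPM + 1), at -0.97 (adjusted p = 0.058), and among E6 tumors, at -1.91 (adjusted p = 0.0512). The lowest Myc tumor for both was R26P115. Of 39 Hox genes, 2 (Hoxd10 and Hoxd11) were higher in Shh tumors, 3 (Hoxb9, Hoxc6 and Hoxc8) were lower and 34 were not called, with a median log2 fold change of -0.05. That is 5 of 39 called, against 33.1% of all genes, and 12 of 39 had an unadjusted p under 0.05, against 44.4% of all genes. Levels of the Hox genes are not given here, so low counts and a lack of difference cannot be told apart.

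Ezh2 is a known target of cell cycle transcription factors, so proliferation genes are given beside it. Of 19 such genes, 1 (E2f1, -0.83, adjusted p = 0.0404) was lower in Shh tumors and 18 were not called, with a median log2 fold change of -0.28. Mki67 (-0.09, SE 0.53), Top2a (0.34, SE 0.47) and Mcm2 (-0.15, SE 0.42) were not called, and on log2(TPM + 1) Mki67 and Mcm2 were at 0.58 and 0.31. The call of E2f1 was lost with limma on log2(TPM + 1) (-0.33, adjusted p = 0.427), among E6 tumors (-0.91, adjusted p = 0.192), with upper-quartile factors (adjusted p = 0.0608), with the name scheme as covariate (adjusted p = 0.052) and without any one of 10 of the 16 tumors.
Within the 11 Myc tumors, each of the 10 genes was correlated with the mean log2(TPM + 1) of the 19 proliferation genes. None of the 10 relations passed a permutation test (100000 two-sided permutations) after adjustment over the 10, while 3 had an unadjusted p under 0.05. With log2 CPM in place of log2(TPM + 1), none passed and 2 had an unadjusted p under 0.05. On that scale r was 0.528 for Ezh2, -0.792 for Ezh1, 0.509 for Bmi1, 0.599 for Phf19 and -0.581 for Cbx7. The values that follow are on log2(TPM + 1). For Ezh2, Pearson's r was 0.60 (permutation p = 0.061, adjusted p = 0.122) and Spearman's rho 0.536 (permutation p = 0.0944, adjusted p = 0.189). Without R26P115 and R26P170, the tumors farthest from the median of the proliferation genes, r was 0.387. Without 43992A, where Ezh2 was lowest, r was 0.912 (permutation, adjusted p = 0.0155). For Ezh1, r was -0.749 (permutation p = 0.00922, adjusted p = 0.0843) and rho -0.627 (permutation p = 0.0445, adjusted p = 0.189). It was -0.281 without R26P115 and R26P170, so that it rests on those tumors. It passed without 43825B (r = -0.801, permutation, adjusted p = 0.0388) and without 43992A (r = -0.803, permutation, adjusted p = 0.0286). For Bmi1, r was 0.691 (permutation p = 0.0169, adjusted p = 0.0843), rho was 0.60 (permutation p = 0.0572, adjusted p = 0.189), and r was 0.482 without the same tumors. Bmi1 passed without 43825B (r = 0.874, permutation, adjusted p = 0.0284). For Phf19, r was 0.581 (permutation p = 0.0467, adjusted p = 0.122) and rho 0.30 (permutation p = 0.373, adjusted p = 0.47), and r turned to -0.15 without R26P115 and R26P170, so that it rests on those tumors. For Cbx7, r was -0.57 (permutation p = 0.0549, adjusted p = 0.122), rho was -0.545 (permutation p = 0.0874, adjusted p = 0.189), and r was -0.0888 without the same tumors. Among the 8 numbered Myc mice alone, r was 0.376 for Ezh2, -0.305 for Ezh1, 0.482 for Bmi1, -0.183 for Phf19 and -0.0763 for Cbx7. Among the 6 intracranial Myc tumors, R26P115 and R26P170 included, these values were 0.469, -0.966, 0.874, 0.613 and -0.972. The 3 R26P Myc mice were too few for a value.

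**Figure D5:**
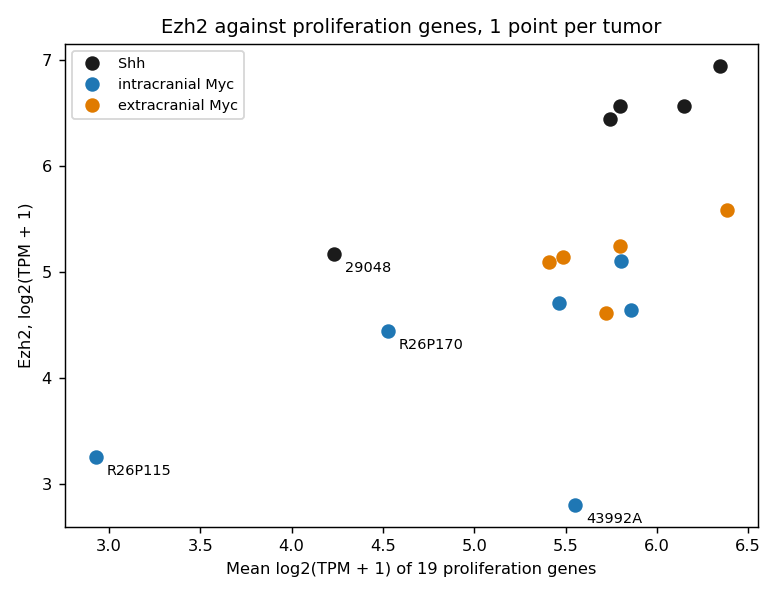
Ezh2 as log2(TPM + 1) (vertical axis) against the mean log2(TPM + 1) of 19 proliferation genes (horizontal axis), 1 point per tumor. The Shh tumors lie above Myc tumors of like proliferation level, and Ezh2 of the Myc tumor 43992A is low at 2.80 with proliferation genes at 5.55.

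Markers of other cell types are given beside the Polycomb genes, to be read against 16.1% of all genes called higher and 17.0% lower. All 9 macrophage and microglia markers were lower in Shh tumors, with summed levels of 325 to 528 CPM against 653 to 5771 CPM in Myc tumors. All 6 fibroblast markers were lower, at 160 to 926 CPM against 1075 to 16399 CPM. Of 5 T cell markers 3 were lower, with sums of 0.647 to 3.29 CPM against 1.75 to 45.7 CPM, and of 5 skeletal muscle markers 3 were lower, at 0.592 to 2.56 CPM against 1.66 to 356 CPM. Of 8 neuron markers 4 were higher in Shh tumors, at 129 to 3599 CPM against 24.1 to 566 CPM, and of 5 astrocyte markers 1 was higher, at 75.0 to 1848 CPM against 3.55 to 400 CPM. Both highest sums were those of 29048. Of the other Shh tumors, only 38594A (1842 CPM) lay above the Myc range for neuron markers and only R26P98 (486 CPM) for astrocyte markers. Of 6 oligodendrocyte markers 5 were called higher, but the summed level was above the Myc range of 55.5 to 281 CPM in 29048 alone (9822 CPM), and the median sum was 108 CPM in Shh against 117 CPM in Myc tumors. Of 6 endothelium markers 2 were lower, at 73.3 to 191 CPM against 73.7 to 355 CPM. No marker was at 0 in all tumors of either subgroup, and the part of these cells in the Polycomb values was not tested.

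Among the Myc tumors, the 10 genes varied along different lines. The highest correlations of log2 CPM between pairs, over 11 tumors whose proliferation and cell type markers vary as above, were those of Suz12 with Mtf2 (r = 0.869), Ezh1 with Cbx7 (r = 0.857), Ezh2 with Phf19 (r = 0.713) and Cbx2 with Bmi1 (r = 0.707). The lowest was that of Ezh1 with Cbx2 (r = -0.54). Ezh2 had r = -0.287 with Eed and -0.307 with Suz12, the other core subunits.
Of the 14274 genes that averaged 50 or more counts in Myc tumors, those most like Ezh2 were Pot1a (r = 0.962), Ppm1m (0.958) and Rad54l (0.951). Those named for Ezh1 are Sod2 (0.951) and Coq10a (0.944). For Cbx7 they were H2-Ke6 (0.901), Rsrp1 (0.889) and Coq10a (0.878). For Suz12 they were Zfp871 (0.952) and Csnk2a1 (0.949), and for Eed Katnbl1 (0.924), Hltf (0.909) and Eras (0.904). For Mtf2 they were Mrpl11 (0.929), Srsf6 (0.916) and Taf5 (0.908), and for Jarid2 Snx10 (0.954), Malt1 (0.948) and Coq8a (0.94). For Phf19 they were Irak4 (0.958), Rinl (0.909) and Srsf2 (0.906), for Cbx2 Sfxn2 (0.944), Fam228b (0.944) and Fmo6 (0.933), and for Bmi1 2610027K06Rik (0.923), Robo1 (0.914) and Nup133 (0.899). These values describe 11 tumors and carry no test.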

How the data were processed

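RNA sequencing of 16 mouse tumors was used. Per the labels, polyadenylated RNA was made into stranded libraries and sequenced in paired ends. According to the submitters' processing notes, the tools were Trim Galore, FastQC, STAR 2.5.3a and Picard, with genome build mm10, and the gene annotation was not given in the sources used here. The authors deposited whole-number counts per gene, without normalization, and TPM values scaled to gene length and to each tumor's sum. No comparison made by the authors was used. The same 10 genes were present in both tables, no table column lacked a tumor, and no pair of tumors was identical.

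Groups followed the tumor location in the labels, and the names Shh and Myc followed the study. The tumor of 43990A is extracranial in the labels, while the study's list of mice has an intracranial tumor under the same number without the letter. It was kept as labelled, and the other site was an alternative. The members and the gene lists were chosen with earlier results of these data known. Counts were fitted with edgeR 4.0.16 (TMM, glmQLFit, glmQLFTest) in R 4.3.3 on genes with a count in any tumor of the fit, p-values were adjusted over every tested gene by Benjamini and Hochberg's method, and SE was the absolute log2 fold change divided by the root of the F statistic. The sites of Myc tumors were fitted on Myc tumors alone, and Shh against each site in a fit of the 3 groups. Alternatives were DESeq2 1.42.0, limma 3.58.1 on log2(TPM + 1), log2(TPM + 0.1) and log2 CPM, other scaling factors, a filter on low counts, the name scheme as covariate or alone, the day of tamoxifen, the site of 43990A, and the omission of tumors. Levels, ratios and shares were computed from the deposited TPM and the normalized counts in Python 3.11.15 with numpy 2.4.6, scipy 1.17.1 and pandas 2.3.3, and drawn with matplotlib 3.10.9. The code was tested on simulated data. Named genes were the 10 members, Smarcb1, Cbx6, Cbx8, Pcgf2, Phf1, Aebp2, other Polycomb genes called with a log2 fold change beyond 1 in either direction, Mki67, Top2a, Mcm2, Cdkn2a, Cdkn2b, and the 3 genes most like each member. Other named genes were chosen after their values were seen. A few genes that this rule or a list would take are not reported here, and shares among Cbx genes are over 4 genes. Gene positions came from GENCODE vM21 (GRCm38) and promoters from RefSeq.

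The detection floor was set at 3 counts, 0.0272 to 0.168 CPM in these tumors, covering counting error only. Reads carry no molecular identifiers. Without strand settings in the sources, genes that overlap on opposite strands may share reads. Protein sequences were not used here.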

Additional observations from a re-analysis of the deposited data

Results flagged for a closer look

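Ezh2 in the Shh tumor of 29048 lay far below the other 4 Shh tumors, at 29.6 CPM against 71.8 to 103 CPM. Its gap to the nearest tumor was 0.712 of the group's range on the log2 scale, just past Dixon's 95% critical value for 5 samples. It was the only such sample among 30 sets (10 genes in 3 groups). Chance gives about 1 in 20 sets, so that 1 among 30 is no more than chance would give. The same tumor had 58.1 TPM of Smarcb1, the highest sum of oligodendrocyte markers (9822 CPM) and the lowest sum of proliferation genes among Shh tumors (454 CPM). The part of these in the Ezh2 value was not tested. Without 29048 and R26P115 together, the log2 fold change of Ezh2 between Shh and Myc tumors was 1.31 (edgeR adjusted p = 0.0059).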

How the results depend on the processing

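No paired analysis was possible because the tumors come from 16 different mice and no label links a tumor of 1 group to one of another. Between Shh and Myc tumors, 7236 genes and 5 Polycomb genes were called. These counts moved to 3742 and 1 among E6 tumors alone and to 0 and 0 among R26P mice alone (5 tumors, 3514 genes with an unadjusted p under 0.05), and the Polycomb count to 3 among numbered mice. Leaving out single tumors gave 5827 to 8642 genes and 4 to 6 Polycomb genes. For the site of Myc tumors, 1 gene was called, and 505 with DESeq2, 2 with limma on log2(TPM + 0.1), 2 with limma on log2 CPM, 0 among E8 tumors (1665 with an unadjusted p under 0.05) and 0 to 3 without single tumors. Against extracranial Myc tumors, 4 Polycomb genes were called with DESeq2 and 1 to 2 without single tumors. In the correlations, 0 to 2 genes passed without single tumors.

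Signs reversed as follows, and no value of reversed sign was called (lowest adjusted p 0.321). With limma on log2(TPM + 1), Ezh1 was 0.16, Phf19 0.06, Cbx7 0.40, Phf1 0.25, Aebp2 0.04, Mki67 0.58 and Mcm2 0.31, and with log2(TPM + 0.1) they were 0.17, 0.26, 0.43, 0.25, 0.04, 0.63 and 0.32. In numbered mice, Suz12 was -0.25, Cbx7 0.33, Smarcb1 0.14 and Top2a -0.42. In R26P mice, Phf19 was 0.19, Cbx6 -0.12, Mki67 1.04 and Mcm2 1.17. Among E6 tumors, Mki67 was 0.30 and Mcm2 0.16. Without 29048 and R26P115, Mki67 was 0.02, and with limma on log2 CPM Mki67 was 0.10. With 43990A as intracranial, the site differences of Suz12, Mtf2 and Cbx2 were 0.09, 0.21 and 0.48, and among E8 tumors those of Ezh1, Suz12 and Cbx7 were 0.07, 0.04 and 0.17. Without single tumors, Shh against Myc ranged from -0.06 to 0.14 for Suz12, -0.63 to 0.07 for Cbx7, -0.27 to 0.15 for Mki67 and -0.44 to 0.09 for Mcm2. Shh against extracranial Myc ranged from -0.05 to 0.83 for Jarid2, the highest being called (without 43998A). The site differences ranged from -0.42 to 0.05 for Ezh1, -0.13 to 0.04 for Suz12, -0.31 to 0.05 for Mtf2, -0.72 to 0.03 for Cbx2 and -0.76 to 0.04 for Cbx7. The causes were not tested. Of the called genes, Mtf2 kept its call in 27 of 28 alternatives, Cbx2 and Bmi1 in 25, Ezh2 in 24 and Eed in 23. Since the subgroups coincide with the site and nearly with the day of tamoxifen, these effects cannot be told apart.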
